A study of Mus musculus with 18 samples.

Results

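Mouse eosinophils were exposed in culture to interleukin 4 (IL-4) or to heat-inactivated *E. coli*, and the quantity described here is the difference between these responses, gene by gene, on the log2 scale. The libraries were taken by stimulus and by file layout. The response to IL-4 is the level in IL-4 libraries 1 to 3 over that in unstimulated libraries d to f, and the response to *E. coli* is the level in *E. coli* libraries 1 to 3 over that in unstimulated libraries a to c. These are 12 of the 18 libraries of the series, 3 in each group, and the remaining 6 were exposed to IFN-γ, alone or with the bacterium. The question was which genes respond differently to a type 2 cytokine and to a bacterium, and which are raised by both.

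All cells came from C57BL/6 mice of the NJ.1638 line, which carry an *Il5* transgene, and their age and sex are not given. Cells washed out of the peritoneum were depleted with beads against surface antigens of T cells and B cells, checked for purity by flow cytometry and kept in DMEM with fetal calf serum for 18 h, alone, with IL-4 at 100 ng/ml or with the killed bacteria. The controls carried the transgene too, so every response was measured in cells that had developed under excess IL-5. The labels do not say whether the libraries of a group are separate mice or separate cultures, so a p-value here measures the spread between these libraries. As background, IL-4 binds a receptor that holds the IL-4 receptor alpha chain, and Janus kinases then phosphorylate STAT6, which turns on genes of alternative activation and type 2 chemokines. Lipopolysaccharide and lipoproteins of *E. coli* are bound by Toll-like receptors, whose adaptors lead to NF-kB and to inflammatory cytokines and neutrophil chemokines. Eosinophils are granulocytes that depend on IL-5, carry both kinds of receptor and are known from helminth infection, allergy and tissue repair.

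Counts per library were 3625036, 6482289 and 5294968 in unstimulated libraries d to f, 5121421, 5909700 and 3827767 with IL-4, 2419241, 1562034 and 2211861 for unstimulated libraries a to c, and 2318235, 2734041 and 1980073 with *E. coli*. In that other layout no gene of the used libraries had more than 4094 counts, just below the number of different molecular identifiers that 6 bases allow. In the IL-4 layout single genes reached 191131 counts. A gene near that ceiling can hardly rise with *E. coli*, and its value is marked where it is given. The mark was set where a library held over 0.8 of the highest count of its layout. Abundant genes below that share carry no mark, and their folds with *E. coli* may be too small as well. Levels are given as normalized CPM, counts brought to a common library total with edgeR's TMM factors, and are compared only within a layout. The floor was set at 3 counts in a library, on average 0.632 CPM in libraries d to f, 0.616 CPM with IL-4, 1.51 CPM in libraries a to c and 1.34 CPM with *E. coli*, and covers counting error only.

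Most eosinophil marker genes were over the floor in all groups. The summed level of 9 markers was 2759, 3665 and 2837 CPM in libraries d to f, 2687, 2797 and 2665 CPM with IL-4, 2592, 3302 and 2732 CPM in libraries a to c and 2377, 2185 and 2359 CPM with *E. coli*. *Ccr3*, the eotaxin receptor, was the most abundant, with means of 2149, 1301, 1521 and 1417 CPM in the same order, and came close to the highest count of the *E. coli* layout, so the sums there may be too small. *Siglecf* and *Il5ra* were also present in every library. Granule genes ranged widely. *Epx*, which encodes eosinophil peroxidase, had means of 1.62, 2.99, 1.53 and 0.471 CPM and was at the floor with *E. coli*, as was *Prg3*, another granule gene, which was also at the floor in libraries a to c, while *Prg2*, which encodes major basic protein, had means of 35.1, 62.96, 31.4 and 27.97 CPM. Macrophage markers, with *C1qc* and *Prg4* among the most abundant, summed to 3524, 3280.2 and 3959.9 CPM in libraries d to f, 2739.9, 2639 and 3046 CPM with IL-4, 2086, 1572 and 2044 CPM in libraries a to c and 1301, 1248 and 2128 CPM with *E. coli*. Which cells these transcripts came from was not tested. In such bulk samples fewer cells of a type and less RNA per cell cannot be told apart.

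**Figure D1:**
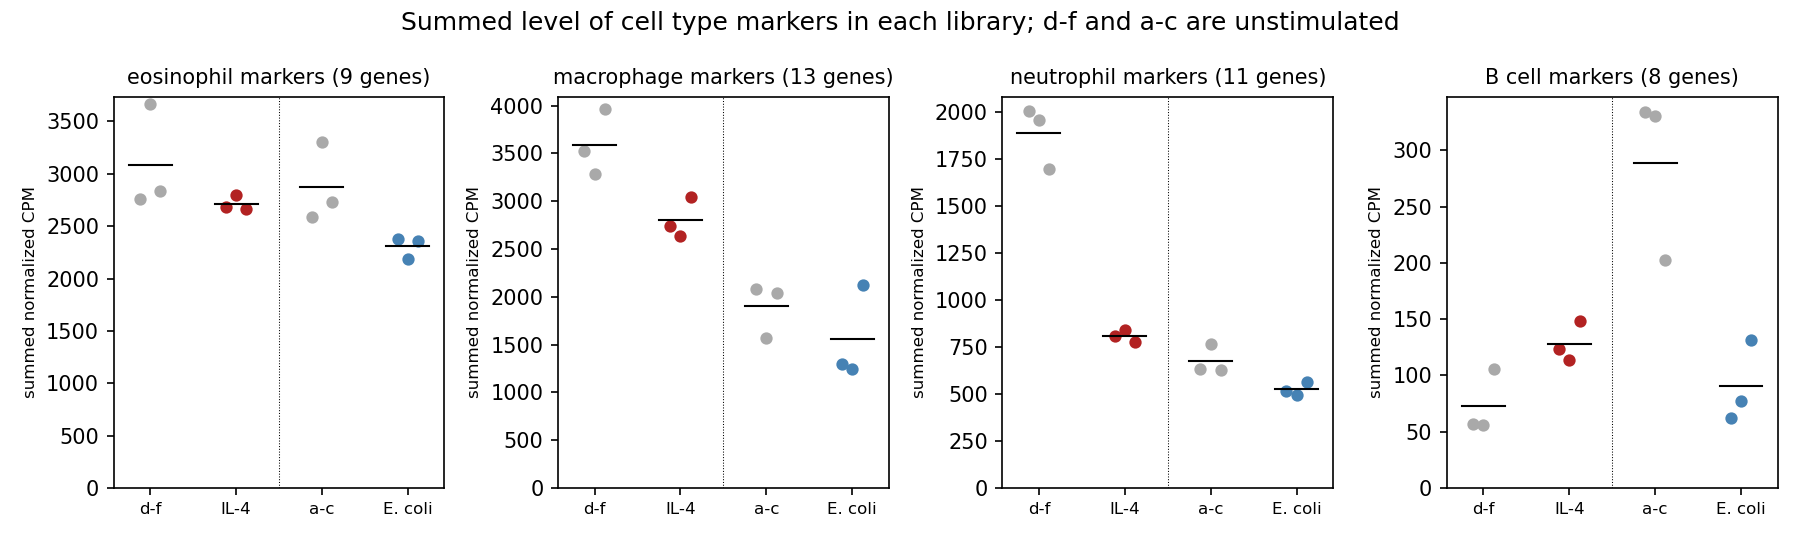
Summed level of the marker genes of each of 4 cell types, in normalized CPM, with 1 point per library and a line at the group mean. The dotted line parts the file layouts, across which levels are not compared. The eosinophil sum holds *Ccr3*, which came close to the highest count of the *E. coli* layout.

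Libraries of a group did not agree equally well. A chi-square per gene, close to 1 where only counting parts a pair, was 21.4 for d and e, 7.17 for d and f and 19.8 for e and f among the unstimulated libraries of the IL-4 layout, 3.51 for 1 and 2, 4.55 for 1 and 3 and 4.89 for 2 and 3 with IL-4, 4.21 for a and b, 2.34 for a and c and 4.14 for b and c in the other unstimulated group and 1.59 for 1 and 2, 3.47 for 1 and 3 and 4.2 for 2 and 3 with *E. coli*. Library e thus stood apart from d and f, and *E. coli* library 3 from libraries 1 and 2, library b also lying further from a and c than these from each other. What set these libraries apart was not tested. A chi-square of this kind also grows with the number of counts, so its values are not to be compared between layouts.

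Genes were tested by edgeR's quasi-likelihood method with Benjamini-Hochberg adjustment over all genes tested, and a gene is called changed where the adjusted p is under 0.05, whatever its fold change. IL-4 raised 630 of 10556 genes (5.97%) and lowered 459 (4.35%), and *E. coli* raised 1540 of 9806 (15.7%) and lowered 1618 (16.5%). The difference between the responses, tested in 1 model of all 12 libraries, was called for 2860 of 11133 genes. In 1450 of them (13.0%) the response to IL-4 lay above that to *E. coli*, and in 1410 (12.7%) it lay below. Over all genes tested the median difference was 0.032, the median response to IL-4 0.001 and the median response to *E. coli* -0.003 on the log2 scale. Without IL-4 library 1, 2 or 3 the genes called higher and lower with IL-4 fell to 312 and 171, to 311 and 184, or to 318 and 197, and without unstimulated library d, e or f they numbered 717 and 510, 812 and 582, or 472 and 340. *E. coli* calls numbered 1046 and 1190 without unstimulated library a, 1111 and 1288 without *E. coli* library 1, 1137 and 1235 without library 2, and 1544 and 1651 without library 3. Where a named response changed its call or moved by more than 1.5-fold without a library, this is given at the end of the paragraph. With a change by a factor of 2 required as well, 1778 differences were called, 1067 with IL-4 above *E. coli* and 711 below. Genes called higher and lower then numbered 326 and 152 with IL-4 and 361 and 663 with *E. coli*. After all libraries had been thinned to the smallest total, 1565 differences were called.

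Genes called in both responses more often moved in opposite directions than together. Of 9154 genes tested in both, 240 were higher with IL-4 and lower with *E. coli* (2.62%), 152 were lower with IL-4 and higher with *E. coli* (1.66%), 94 were raised by both (1.03%) and 72 were lowered by both (0.787%). Of the 545 genes higher with IL-4, 44.0% were lower and 17.2% higher with *E. coli*, beside 16.5% and 15.7% of all genes tested with *E. coli*. Their median response to *E. coli* was -0.35 on the log2 scale. Of the 445 genes lower with IL-4, 34.2% were higher and 16.2% lower with *E. coli*, with a median response of 0.18. From the *E. coli* side, 6.32% of its 1488 higher genes were raised and 10.2% lowered by IL-4. Of its 1558 lower genes, 15.4% were raised and 4.62% lowered by IL-4, beside 5.97% and 4.35% of all genes tested with IL-4. The shares raised by both or lowered by both thus lay near those over all genes. Across the 9154 genes, which are not independent replicates, Pearson's r of the responses was -0.201 and Spearman's rho -0.253. The 392 genes moved in opposite directions fell to 188, 189 and 186 without IL-4 library 1, 2 or 3, and to 98 when both changes had to reach a factor of 2.

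**Figure D2:**
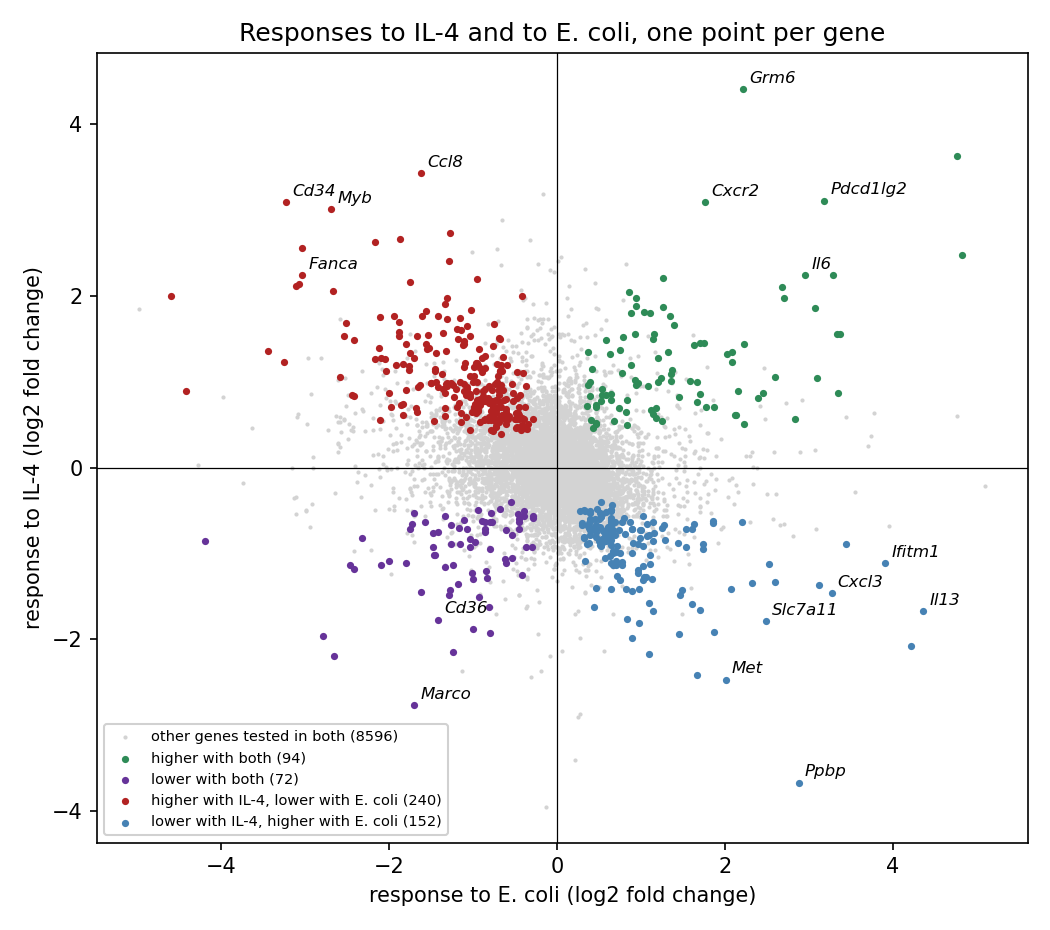
Log2 response to *E. coli* on the x axis and to IL-4 on the y axis, with 1 point for each of the 9154 genes tested in both responses and colours for genes called in both. The upper left and lower right quadrants hold 240 and 152 coloured genes, and the upper right and lower left 94 and 72.

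Among genes measured in all groups, the largest differences with IL-4 above *E. coli* included *Atp8b5*, *Cd34*, *Myb*, *Svip*, *Fanca* and *Ccl8*. *Cd34* (ENSMUSG00000016494, chromosome 1, 194938819 to 194961279), which encodes a sialomucin known from blood progenitors and also found on mouse eosinophils, was at 3.05, 3.15 and 4.53 CPM in libraries d to f, 27.01, 27.4 and 38.9 CPM with IL-4, 37.4, 32.9 and 16.8 CPM in libraries a to c and 4.40, 2.91 and 1.60 CPM with *E. coli*. Every IL-4 library lay above its controls and every *E. coli* library below its own. The response was 3.09 ± 0.26 with IL-4 and -3.23 ± 0.38 with *E. coli* (log2, SE, n = 3 libraries per group), and their difference was 6.31 ± 0.49 (edgeR quasi-likelihood, adjusted p = 1.90e-07). Part of *Cd34* overlaps a gene on the opposite strand, so some of its counts could belong there. *Myb* (ENSMUSG00000019982, chromosome 10, 21124935 to 21160984), a transcription factor of blood progenitors, was at 2.22, 4.14 and 2.08 CPM in libraries d to f, 28.3, 20.9 and 21.3 CPM with IL-4, 14.2, 6.72 and 7.09 CPM in libraries a to c and 2.20, 1.09 and 1.07 CPM with *E. coli*. Again the libraries separated both ways. The difference was 5.69 ± 0.57 (edgeR quasi-likelihood, adjusted p = 2.30e-06), made of 3.01 with IL-4 and -2.69 with *E. coli*. *Ccl8* (ENSMUSG00000009185, chromosome 11, 82115185 to 82116799), a chemokine that attracts type 2 lymphocytes in mice, was at 14.7, 8.45 and 8.49 CPM in libraries d to f, 114, 105 and 115 CPM with IL-4, 4.33, 6.05 and 10.2 CPM in libraries a to c and 1.76, 1.45 and 3.73 CPM with *E. coli*. Its libraries did not overlap between stimulated and unstimulated cells for either stimulus, and the difference was 5.05 ± 0.50 (edgeR quasi-likelihood, adjusted p = 2.16e-06). *Ccl8* lost its *E. coli* call without unstimulated library c or *E. coli* library 1 or 2.

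The other genes of this kind were *Atp8b5*, a phospholipid flippase (2.000 with IL-4, -4.59 with *E. coli*, log2), *Svip*, an inhibitor of protein removal from the endoplasmic reticulum (2.56 and -3.04), and *Fanca* of the Fanconi anaemia DNA repair complex (2.24 and -3.03). *Fanca* was at 33.1, 34.7 and 38.4 CPM in the IL-4 libraries against 8.89, 5.14 and 8.68 CPM in libraries d to f, and 6.60, 5.81 and 9.60 CPM in the *E. coli* libraries against 84.3, 51.1 and 38.5 CPM in libraries a to c, again with no overlap within either layout. *Klrb1f*, a lectin-like receptor of the natural killer cell family, and *Adgrg5*, an adhesion G protein-coupled receptor, differed by 4.80 and 4.71. *Ednra*, the type A endothelin receptor, rose from 1.44 to 8.60 CPM with IL-4 and stood at 5.69 and 1.11 CPM without and with *E. coli* (difference 4.76). The predicted genes *Gm31520*, *Gm26512* and *Gm15513* differed by 5.32, 4.97 and 4.80. *Fanca*, *Ednra*, *Myb* and *Gm26512* overlap genes on the opposite strand. In all, 240 of the 1450 genes with IL-4 above *E. coli* were called in opposite directions. Another 188 were called higher with IL-4 and not lower with *E. coli*, among them 8 raised by both. A further 764 were called lower with *E. coli* and not higher with IL-4, among them 7 lowered by both. The remaining 258 were called in neither way. *Atp8b5* had a response to *E. coli* of -6.11 without *E. coli* library 1 and -3.90 without *E. coli* library 2, and *Ednra* had a difference of 5.36 without *E. coli* library 2. *Gm26512* had a difference of 6.55 without *E. coli* library 1, and *Gm15513* had a difference of 6.38 without *E. coli* library 1 and 4.18 without *E. coli* library 2. *Atp8b5*, *Klrb1f* and *Gm31520* lost their IL-4 calls without unstimulated library f or any 1 IL-4 library, and *Gm15513* lost its *E. coli* call without unstimulated library a.

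B cell markers moved with this group of genes. Of 8 markers, 7 were tested and 6 had a called difference with IL-4 above *E. coli*, beside 13.0% of all genes. Called higher with IL-4 were 3, beside 5.97%, and called lower with *E. coli* 6, beside 16.5%. Their summed level was 57.2, 55.99 and 106 CPM in libraries d to f, 123, 113 and 148 CPM with IL-4, 334, 331 and 202 CPM in libraries a to c and 62.04, 77.03 and 132 CPM with *E. coli*. The IL-4 libraries were all above their controls and the *E. coli* libraries all below theirs. *Igkc* and *Ighm*, which encode immunoglobulin chains, were the most abundant, at 96.8 and 105 CPM in libraries a to c and 30.7 and 30.9 CPM with *E. coli*. No marker of the list was at 0 in all libraries of a group. The part of B cell RNA in the differences was not tested. *Ighm* lost its IL-4 call without any 1 IL-4 library.

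In the other direction, with *E. coli* above IL-4, stood secreted mediators and a transporter. *Il13* (ENSMUSG00000020383, chromosome 11, 53631324 to 53634702), a type 2 cytokine that shares a receptor chain with IL-4, was at 12.2, 13.4 and 10.004 CPM in libraries d to f, 4.57, 2.99 and 3.63 CPM with IL-4, 3.94, 13.4 and 15.1 CPM in libraries a to c and 199, 227 and 212 CPM with *E. coli*. Each IL-4 library was below every control of its layout, and each *E. coli* library was far above its controls. The response was -1.67 ± 0.29 with IL-4 and 4.36 ± 0.24 with *E. coli* (log2, SE, n = 3 libraries per group), a difference of -6.04 ± 0.40 (edgeR quasi-likelihood, adjusted p = 5.75e-08). *Ppbp* (ENSMUSG00000029372, chromosome 5, 90768518 to 90770063), which encodes a neutrophil chemokine best known from platelets, was at 73.04, 157 and 65.9 CPM in libraries d to f, 7.42, 6.81 and 9.33 CPM with IL-4, 5.12, 8.74 and 16.8 CPM in libraries a to c and 68.2, 81.4 and 76.8 CPM with *E. coli*. The libraries again separated for both stimuli, in opposite directions, and the difference was -6.57 ± 0.50 (edgeR quasi-likelihood, adjusted p = 1.64e-07). Of the platelet markers, a list that holds *Ppbp* too, *Pf4* was at 351 and 258 CPM without and with IL-4. It was at 368 and 345 CPM without and with *E. coli* and was called in neither response. *Itga2b*, also on the list, was at 227 and 289 CPM without and with IL-4. Without and with *E. coli* it was at 97.1 and 108 CPM, and neither response was called. *Gp9* and *Gp1bb* were at 0 in all 12 libraries. *Slc7a11* (ENSMUSG00000027737, chromosome 3, 49892526 to 50443614), the cystine and glutamate exchanger that feeds glutathione synthesis, was at 511, 406 and 366 CPM in libraries d to f, 108, 146 and 116 CPM with IL-4, 85.5, 92.8 and 132 CPM in libraries a to c and 534, 598 and 615 CPM with *E. coli*. It lay below its controls in every IL-4 library and above them in every *E. coli* library, with a difference of -4.30 ± 0.24 (edgeR quasi-likelihood, adjusted p = 1.17e-08). *Ppbp* had a difference of -7.20 without unstimulated library c.

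*Cxcl3*, a neutrophil chemokine, fell from 127 to 46.2 CPM with IL-4 and rose from 135 to 1318 CPM with *E. coli*. *Ifitm1*, an interferon-induced membrane protein, fell from 153 to 70.97 CPM and rose from 108 to 1605 CPM. Both came close to the highest count of the *E. coli* layout, so their differences of -4.75 and -5.03 (log2) may be too small. The remaining genes that moved in opposite directions here were *U90926*, a gene known from infected macrophages (-2.08 with IL-4, 4.22 with *E. coli*), *Cyp11a1*, the first enzyme of steroid hormone synthesis (-1.37 and 3.12), *Met*, the receptor of hepatocyte growth factor (-2.47 and 2.01), and *Ccl3*, a chemokine for monocytes and granulocytes (-0.89 and 3.44). *Peg10*, an imprinted gene of retroviral origin, and *Lama5*, a laminin chain, were raised by *E. coli*, by 5.10 and 3.95 on the log2 scale, and had uncalled responses of -0.22 and -0.68 to IL-4. The uncharacterized *5830415G21Rik* differed by -4.91. Of the 1410 genes with *E. coli* above IL-4, 152 were called in opposite directions. Another 165 were called lower with IL-4 and not higher with *E. coli*, among them 8 lowered by both. A further 812 were called higher with *E. coli* and not lower with IL-4, among them 23 raised by both. The remaining 281 were called in neither way. *Cyp11a1* had a response to *E. coli* of 3.80 without unstimulated library c, and *Peg10* had a response to *E. coli* of 6.01 without unstimulated library a. *5830415G21Rik* had a difference of -5.82 without unstimulated library c, and *Ifitm1* lost its IL-4 call without any 1 IL-4 library. *U90926* lost its IL-4 call without unstimulated library d or any 1 IL-4 library, and *Ccl3* lost its IL-4 call without unstimulated library d or IL-4 library 2 or 3. *Peg10* gained an IL-4 call without unstimulated library e.

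Some differences rested on a group with no library over the floor. Such genes are given by their levels and by the ratio of pooled counts with its counting interval, or by a lower bound where the group was at 0. *Inpp4b*, a phosphatase of the phosphoinositide 3-kinase pathway, was at 37.8, 26.2 and 22.1 CPM in libraries a to c and 1.32, 0.363 and 1.07 CPM with *E. coli*, a fall of 33.9-fold (95% counting interval 15.3 to 93.5). In the IL-4 layout it was at 1.67, 0.663 and 4.34 CPM in libraries d to f and 10.5, 8.64 and 4.93 CPM with IL-4, higher in each IL-4 library, and this response was not called. *G430095P16Rik*, an uncharacterized gene that overlaps another on the opposite strand, was lower with *E. coli* by 53.8-fold (95% counting interval 9.22 to 2168) and rose from 2.38 to 17.4 CPM with IL-4. *Gbp2b*, an interferon-induced GTPase, was at least 1.64-fold lower with *E. coli*, and its means were 6.59 and 12.04 CPM without and with IL-4. *Smc1b*, a meiotic cohesin, rose with IL-4 from 1.93 to 8.48 CPM and did not pass the floor in the other layout. *Aifm3*, a mitochondrial oxidoreductase, was higher with IL-4 by 26.6-fold (95% counting interval 4.39 to 1091) and fell from 6.98 to 1.22 CPM with *E. coli*.

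On the *E. coli* side, *Mmp3*, a matrix metalloproteinase, was at 4.40, 4.72 and 15.5 CPM with *E. coli* and at 0 in every library of a to c, at least 5.43-fold higher. It was at 0 in all IL-4 libraries and at 0.278, 0 and 0.378 CPM in libraries d to f. *Il1f6*, which encodes IL-36 alpha, rose from 1.13 to 16.7 CPM with *E. coli* and was lower with IL-4 by 7.09-fold (95% counting interval 1.63 to 64.3). *Fst*, which encodes the activin-binding protein follistatin, was higher with *E. coli* by 56.5-fold (95% counting interval 9.77 to 2266). The predicted genes *Gm5483* and *Gm5416* were higher with *E. coli* by 39.2-fold (95% counting interval 13.1 to 192) and by 43.7-fold (95% counting interval 7.48 to 1762). *Fst* and *Gm5483* did not pass the floor in any library of the IL-4 layout, so no fold is given there, and neither did *Gm5416* with IL-4. *Fst* also overlaps a gene on the opposite strand. The difference of *Mmp3* was no longer called without unstimulated library f (-9.59), fitted values that give no bound. That of *Fst* lost its call without unstimulated library b (-5.83), c (-5.59), d (-5.93), e (-6.21) or f (-6.12) or IL-4 library 1 (-5.58) or 3 (-5.74), fitted values that give no bound. For *Gm5416* it was not called without unstimulated library e (-5.11), fitted values that give no bound. The difference of *Gm5483* was no longer called without unstimulated library e (-4.73) or after thinning to the smallest total (-6.03), fitted values that give no bound.

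Cytokines, a checkpoint ligand and a chemokine receptor were among the 94 genes raised by both stimuli. *Il6* (ENSMUSG00000025746, chromosome 5, 30013114 to 30019981), the inflammatory cytokine interleukin 6, was at 19.4, 13.4 and 16.6 CPM in libraries d to f, 83.3, 77.1 and 71.5 CPM with IL-4, 17.3, 19.5 and 26.6 CPM in libraries a to c and 130.2, 153 and 214 CPM with *E. coli*. All stimulated libraries lay above their controls, with responses of 2.24 ± 0.17 to IL-4 and 2.96 ± 0.21 to *E. coli* (log2, SE, n = 3 libraries per group). Their difference of -0.73 ± 0.29 was not called (edgeR quasi-likelihood, adjusted p = 0.0721). *Pdcd1lg2* (ENSMUSG00000016498, chromosome 19, 29410919 to 29471161), which encodes the T cell inhibitory ligand PD-L2, was at 2.78, 1.99 and 2.83 CPM in libraries d to f, 22.6, 19.8 and 22.8 CPM with IL-4, 1.18, 1.34 and 1.33 CPM in libraries a to c and 8.80, 13.4 and 13.9 CPM with *E. coli*. Stimulated and unstimulated libraries did not overlap, and libraries a to c did not pass the floor. The response was 3.11 to IL-4 on the log2 scale and 9.45-fold (95% counting interval 4.58 to 22.6) to *E. coli*, and the difference was not called (edgeR quasi-likelihood, adjusted p = 0.907). *Il19*, an interleukin 10 family cytokine, was at 0, 0 and 1.32 CPM in libraries d to f, 7.99, 5.65 and 4.41 CPM with IL-4, 1.97, 2.02 and 3.10 CPM in libraries a to c and 48.8, 53.05 and 101 CPM with *E. coli*, near the counting floor in both control groups, and its difference of -1.18 ± 1.13 was not called. Without library f, the only one of d to f with counts, the sign turned (2.81, a fitted value that gives no bound). *Cxcr2* (ENSMUSG00000026180, chromosome 1, 74153989 to 74161246), the receptor for neutrophil chemokines and a member of the neutrophil marker list, was at 3.89, 2.48 and 4.91 CPM in libraries d to f, 27.96, 25.4 and 42.8 CPM with IL-4, 31.9, 24.2 and 27.5 CPM in libraries a to c and 105, 91.2 and 90.6 CPM with *E. coli*. It rose in every stimulated library and more with IL-4 (3.09) than with *E. coli* (1.76), and the difference was called (1.31 ± 0.34, edgeR quasi-likelihood, adjusted p = 0.00927). The difference of *Il6* was also called without unstimulated library c (-0.94) or e (-0.86) or *E. coli* library 1 (-0.87) or without a filter on low counts (-0.74). *Il19* lost its IL-4 call without any 1 IL-4 library.

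The other genes with the largest shared rises were *Dgat2*, an enzyme of triglyceride synthesis (2.48 with IL-4 on the log2 scale, and with *E. coli* 29.5-fold (95% counting interval 14.1 to 74.3) over controls at the floor), *Slamf1*, a self-binding receptor of leukocytes (log2 2.24 and 3.29, its *E. coli* libraries being at 24.2, 33.1 and 79.4 CPM), *Grm6*, a glutamate receptor (4.41 and 2.22), *Syt7*, a calcium sensor of exocytosis (2.68 with *E. coli*), *Cyp1b1*, a cytochrome P450 (1.97 and 2.71), and *Smpd5*, a sphingomyelinase (1.86 and 3.07). *Inhba*, the activin A subunit, and *Mmp13*, a collagenase, rose by 1.56 and 1.55 with IL-4 and by 3.34 and 3.37 with *E. coli*. *Grm6*, *Syt7* and *Smpd5* overlap genes on the opposite strand. The median response of the 94 genes was 1.03 to IL-4 and 1.21 to *E. coli*, and 37 genes rose by 2-fold or more with both. The difference was called for 31, of which 8 rose more with IL-4 and 23 more with *E. coli*. It was not called for 63, which does not show that their responses are equal. The difference of *Dgat2* was no longer called without unstimulated library d (-1.99) or after thinning to the smallest total (-2.48), fitted values that give no bound. That of *Grm6* lost its call after thinning to the smallest total (1.87). For *Smpd5* it was not called without a filter on low counts (-1.24) or after thinning to the smallest total (-0.90). The difference of *Mmp13* was no longer called with limma-voom (-1.73) or after thinning to the smallest total (-1.58). The difference of *Cyp1b1* (-0.77) was not called with all libraries and gained a call without unstimulated library d (-0.98). *Slamf1* had a response to *E. coli* of 2.69 without *E. coli* library 3, and *Grm6* had a response to IL-4 of 5.14 without unstimulated library f. *Syt7* had a response to *E. coli* of 3.27 without unstimulated library a, and *Dgat2* lost its IL-4 call without IL-4 library 1.

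For some genes raised by both the interval of the difference was narrow enough to bound it. *Sema4a* (ENSMUSG00000028064, chromosome 3, 88435959 to 88461182), a semaphorin that costimulates T cells, was at 328, 355 and 299 CPM in libraries d to f, 569, 661 and 710.3 CPM with IL-4, 169, 163 and 166 CPM in libraries a to c and 345, 320.1 and 307 CPM with *E. coli*. The responses were 0.98 and 0.96 on the log2 scale, all stimulated libraries lay above their controls, and the 95% interval of the difference ran from -0.35 to 0.36. *Pecam1*, an adhesion molecule of leukocytes and endothelium, rose by 0.79 and 0.84 (interval -0.39 to 0.28), and *Map2k1*, the kinase MEK1, by 0.52 and 0.46 (-0.25 to 0.36). *Cish*, an inhibitor of cytokine receptor signalling, rose by 0.54 and 0.68, the Golgi protein gene *Sys1* by 0.46 and 0.43, and the tubulin gene *Tuba4a* by 0.51 and 0.47. The intervals of these 6 genes lay between -0.50 and 0.38. *Cish*, *Sys1* and *Tuba4a* overlap genes on the opposite strand. *Map2k1* lost its IL-4 call without any 1 IL-4 library, and *Sys1* lost its IL-4 call without unstimulated library f or any 1 IL-4 library. *Cish* and *Tuba4a* lost their IL-4 calls without any 1 IL-4 library or unstimulated library d or f.

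**Figure D3:**
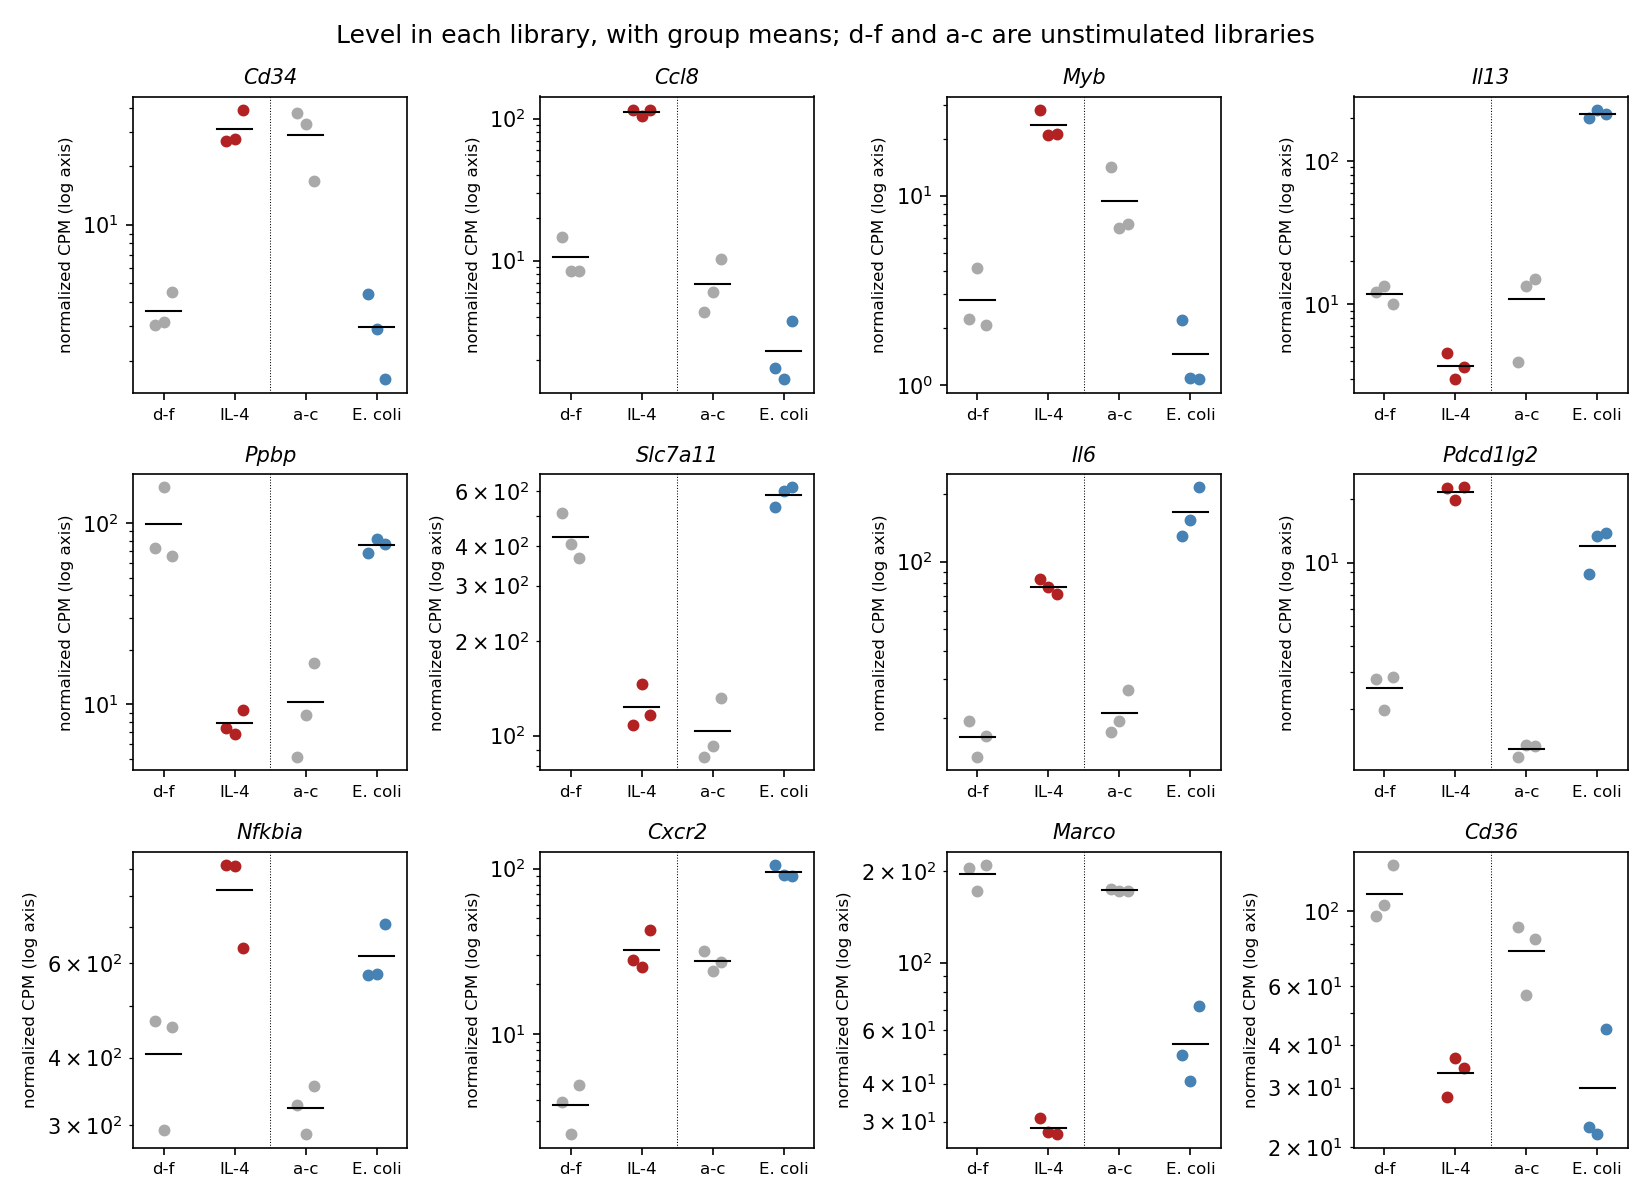
Normalized CPM on log axes for 12 genes, with 1 point per library and a line at the group mean. *Cd34*, *Ccl8* and *Myb* rose with IL-4 and fell with *E. coli*, *Il13*, *Ppbp* and *Slc7a11* did the reverse, *Il6*, *Pdcd1lg2*, *Nfkbia* and *Cxcr2* rose with both, and *Marco* and *Cd36* fell with both.

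The 72 genes lowered by both included the scavenger receptors *Marco* and *Cd36*. *Marco* (ENSMUSG00000026390, chromosome 1, 120474538 to 120505024), a scavenger receptor for bacteria, was at 204, 171 and 209 CPM in libraries d to f, 30.8, 27.7 and 27.2 CPM with IL-4, 175, 172 and 172 CPM in libraries a to c and 49.7, 40.7 and 71.97 CPM with *E. coli*. All stimulated libraries were below their controls, and *Marco* fell further with IL-4 (-2.77 ± 0.14) than with *E. coli* (-1.70 ± 0.16, log2, SE, n = 3 libraries per group), with a difference of -1.09 (edgeR quasi-likelihood, adjusted p = 0.00214). *Cd36*, a scavenger receptor for lipids, was at 96.4, 104 and 137 CPM in libraries d to f, 28.2, 36.7 and 34.2 CPM with IL-4, 89.4, 56.5 and 82.4 CPM in libraries a to c and 22.9, 21.8 and 44.8 CPM with *E. coli*. It was lower in every stimulated library, and the difference of -0.38 was not called. Others with large shared falls were *Cd1d1*, which presents lipids to T cells (-2.20 and -2.65), *Spic*, a transcription factor of red pulp macrophages (-1.96 and -2.78), *Rab7b*, a lysosomal GTPase (-1.45 and -1.62), *Cebpa*, a granulocyte transcription factor (-1.43 and -1.27), and *Cd93*, a C-type lectin-like receptor (-2.15 and -1.24). The difference was called for 15 of the 72. The difference of *Cd93* (-0.93) was not called with all libraries and gained a call without unstimulated library e (-1.28). *Spic* had a response to IL-4 of -2.77 without IL-4 library 3, and *Spic* had a response to *E. coli* of -3.86 without *E. coli* library 3. *Spic* lost its IL-4 call without unstimulated library f or IL-4 library 1 or 2, and *Cebpa* lost its IL-4 call without IL-4 library 1 or 2. *Cebpa* lost its *E. coli* call without *E. coli* library 1 or 2 or unstimulated library a or b or c, and *Cd93* lost its IL-4 call without IL-4 library 2.

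Some macrophage markers fell and others did not. Of 13, 6 were called lower with IL-4, beside 4.35% of all genes, and 4 were called lower with *E. coli*, beside 16.5%. *Marco*, *Vsig4*, a complement receptor of resident macrophages, and *Cd5l*, an apoptosis inhibitor secreted by macrophages, were the 3 lowered by both. *Csf1r*, the receptor that keeps macrophages alive, fell by 0.68 with IL-4 and had an uncalled response of 0.05 to *E. coli*. *Timd4*, a receptor for dying cells on resident macrophages, had an uncalled response of 0.53 to IL-4 and fell by 1.60 with *E. coli*, a called difference of 2.11. The IL-4 libraries were all below their controls in the summed level of the list given above. Among the *E. coli* libraries, 1 and 2 were below all controls and 3 was above all of them. The part of macrophage RNA in the falls was not tested. *Csf1r* and *Vsig4* lost their IL-4 calls without IL-4 library 1 or 2, and *Timd4* gained an IL-4 call without unstimulated library f.

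Gene lists that fit the stimuli are described by counts and medians, to be read beside the shares and medians over all genes given above. Fewer members of some lists were tested with *E. coli* than with IL-4, so the numbers tested are given too, and counts of 3 or fewer moved by up to 3 genes when a library was left out. Of 25 STAT6 targets and alternative activation genes, 21 were tested with IL-4, 11 being higher and 1 lower (median 0.85), and 14 with *E. coli*, 7 being higher and 1 lower (median 0.42). The difference was called above for 5 and below for 4 of 20 tested, with a median of 0.64, or 0.57 with genes at the floor set to their bound. *Clec7a*, the beta-glucan receptor dectin 1, was at 171, 209 and 198 CPM in libraries d to f, 439, 434 and 419.9 CPM with IL-4, 122, 90.1 and 103 CPM in libraries a to c and 55.001, 65.04 and 54.9 CPM with *E. coli*. It rose in every IL-4 library and fell in every *E. coli* library, with a difference of 2.000 ± 0.19 (edgeR quasi-likelihood, adjusted p = 1.13e-06). *Pparg*, a nuclear receptor of lipid metabolism, was at 7.23, 4.98 and 3.63 CPM with IL-4, higher than in libraries d to f by 40.5-fold (95% counting interval 10.9 to 339.7), and at 2.20, 1.82 and 1.07 CPM with *E. coli* against 0.394, 2.02 and 0.886 CPM in libraries a to c. *Egr2*, a transcription factor, and *Il4ra*, the IL-4 receptor alpha chain, rose with *E. coli* by 2.48 and 1.12 and had uncalled responses of 0.56 and -0.07 to IL-4. *Retnla*, a resistin-like type 2 marker, was near the highest count of the *E. coli* layout. The difference of *Pparg* was no longer called without unstimulated library b (3.59), fitted values that give no bound. *Egr2* gained an IL-4 call without unstimulated library e. The 11 higher with IL-4 became 7 to 14 with a library left out.

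NF-kB and Toll-like receptor targets leaned towards *E. coli*. Of 32 genes, 32 were tested with *E. coli*, 20 being higher (median 0.72), and 31 with IL-4, 8 being higher and 6 lower (median -0.01). Differences were called below for 18 and above for 2 of 32, with a median of -0.97. *Irak3*, an inhibitor of Toll-like receptor signalling, was at 56.1, 57.5 and 57.6 CPM in libraries d to f, 52.7, 40.04 and 45.6 CPM with IL-4, 71.7, 73.9 and 84.2 CPM in libraries a to c and 448, 433 and 422 CPM with *E. coli*. The *E. coli* libraries were all far above their controls and the IL-4 libraries slightly below theirs, and the difference was -2.83 ± 0.17 (edgeR quasi-likelihood, adjusted p = 2.11e-08). *Lcn2*, an antibacterial protein that binds iron carriers, was at 25.9, 31.6 and 32.7 CPM in the IL-4 libraries against 154, 144 and 185 CPM in libraries d to f, and 403, 411 and 774 CPM in the *E. coli* libraries against 109.9, 191 and 202 CPM in libraries a to c, in opposite directions without overlap (difference -4.10). *Nfkbiz*, an NF-kB cofactor, rose with *E. coli* by 2.38 and had an uncalled response of -0.01 to IL-4. *Nfkbia*, the NF-kB inhibitor, rose with both, by 1.02 and 0.93, while *Nfkb1*, the p50 precursor, rose with IL-4 by 0.64 and had a larger response to IL-4 than to *E. coli* (difference 0.80). *Ptgs2*, which makes prostaglandin precursors, rose with both but more with *E. coli* (difference -2.07), and *Ptges*, the next enzyme, fell with IL-4 and rose with *E. coli* (difference -2.06). *Saa3*, an acute phase protein, was near the highest count of the *E. coli* layout. *Irak3* overlaps a gene on the opposite strand. *Nfkbia* and *Nfkb1* lost their IL-4 calls without IL-4 library 1 or 2, and *Ptges* lost its *E. coli* call without *E. coli* library 3 or unstimulated library a or b or c. The 8 higher with IL-4 became 2 to 9 with a library left out.

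Of 27 cytokines and growth factors, 21 were tested for the difference, which was called below for 12 and above for 1 (median -1.18). With *E. coli* 16 were higher and 1 lower of 20 tested, and with IL-4 6 were higher and 3 lower of 20. *Tnf*, the inflammatory cytokine, was at 22.8, 17.6 and 11.3 CPM in libraries d to f, 9.13, 5.98 and 8.55 CPM with IL-4, 17.3, 16.8 and 13.7 CPM in libraries a to c and 83.2, 79.6 and 117 CPM with *E. coli*. Its IL-4 libraries were below and its *E. coli* libraries above their controls, with a difference of -3.67 ± 0.36 (edgeR quasi-likelihood, adjusted p = 1.67e-06). *Il10*, an anti-inflammatory cytokine, likewise fell with IL-4 by 1.92 and rose with *E. coli* by 1.87 on the log2 scale. *Il1b*, which encodes the pyrogen IL-1 beta, and *Vegfa*, the vascular growth factor, rose with both and more with *E. coli*, with differences of -2.50 and -1.60. In *E. coli* libraries 1 to 3 *Il1b* was at 427, 438 and 781 CPM against 66.2, 41.7 and 50.5 CPM in libraries a to c, and its response of 3.35 to *E. coli* was 3.01 without library 3. *Il5*, the eosinophil growth factor, which these mice also carry as a transgene, rose with *E. coli* from 549 to 918 CPM, was at 321 and 262 CPM without and with IL-4, and differed by -1.05. *Il16*, a chemoattractant for CD4 T cells, was the member with IL-4 above *E. coli* (1.20 and -1.91). *Il1b*, *Il5* and *Il16* overlap genes on the opposite strand. *Tnf* lost its IL-4 call without unstimulated library d or any 1 IL-4 library.

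Chemokines were counted in a CC and a CXC list. Of 15 CC chemokines, 8 were higher and 3 lower of 12 tested with IL-4 (median 1.14), and 4 were higher and 2 lower of 11 tested with *E. coli* (median -0.03). The difference was called above for 5 and below for 4 of 12, with a median of -0.09, or -0.22 with the gene at the floor set to its bound. *Ccl12*, a monocyte chemokine, rose with IL-4 and fell with *E. coli* (from 25.95 to 73.4 CPM with IL-4 and from 33.8 to 15.2 CPM with *E. coli*, difference 2.65). *Ccl22*, a ligand of CCR4 on T cells, and *Ccl24*, an eotaxin, rose with IL-4 and were not called with *E. coli*, and their differences were 3.24 and 1.58. *Ccl17*, the other ligand of CCR4, was at 4.19, 4.82 and 9.59 CPM with IL-4, higher by 14.5-fold (95% counting interval 6.39 to 40.5), and did not pass the floor in the other groups. *Ccl2* and *Ccl7*, monocyte chemokines, rose with both, by 1.000 and 1.28 with IL-4 and by 1.20 and 1.21 with *E. coli*. In the *E. coli* libraries *Ccl2* was at 721, 753 and 1318 CPM, *Ccl7* at 154, 178 and 375 CPM and *Ccl4* at 474, 517 and 1010.3 CPM, highest in library 3, which also had the highest sum of macrophage markers, and the part of macrophage RNA in this was not tested. Without library 3 the responses of *Ccl2*, *Ccl7* and *Ccl4* were 0.88, 0.73 and 1.98, the last being 2.40 with it. *Ccl4* rose with both and more with *E. coli* (difference -1.60). *Ccl6* and *Ccl9* were near the highest count of the *E. coli* layout. Of 13 CXC chemokines, 1 was higher and 4 were lower of 13 tested with IL-4 (median -0.60), and 5 were higher and 1 was lower of 11 tested with *E. coli* (median 0.56). Differences were called above for 1 and below for 5 of 13, with a median of -0.56, or -0.98 with the gene at the floor set to its bound. *Cxcl1* and *Cxcl2*, ligands of CXCR2, rose with *E. coli* by 2.57 and 1.95 and had uncalled responses of -0.60 and -0.72 to IL-4 (called differences -3.19 and -2.68). The difference of *Ccl24* was no longer called without unstimulated library a (1.25). *Ccl22* gained an *E. coli* call without *E. coli* library 3, and *Cxcl1* and *Cxcl2* gained IL-4 calls without unstimulated library e.

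Chemokine and chemoattractant receptors changed in both directions. Of 17 tested, 7 had a difference above and 4 below, with a median of -0.02. With IL-4 2 were higher and 3 lower of 17 tested, and with *E. coli* 3 and 4 of 16. *Cxcr4*, the receptor for CXCL12, was at 137, 153 and 164 CPM in libraries d to f, 522, 533 and 588 CPM with IL-4, 218, 231 and 207 CPM in libraries a to c and 234, 254 and 250.05 CPM with *E. coli*. It rose in every IL-4 library, by 1.85, had an uncalled response of 0.17 to *E. coli*, and differed by 1.67 ± 0.16 (edgeR quasi-likelihood, adjusted p = 1.13e-06). *Fpr1*, a receptor for bacterial formyl peptides, was at 52.1, 56.3 and 57.5 CPM in the IL-4 libraries against 166, 134 and 261 CPM in libraries d to f, and 137, 121 and 267 CPM in the *E. coli* libraries against 109.9, 79.3 and 100.1 CPM in libraries a to c. It fell in every IL-4 library and rose in every *E. coli* library, with a difference of -2.61. *Ptger2* and *Ptger4*, receptors for prostaglandin E2, fell with *E. coli* by 1.33 and 1.42, with called differences of 1.57 and 1.71, while both overlap genes on the opposite strand. *Fpr1* lost its *E. coli* call without unstimulated library b. The 4 lower with *E. coli* became 4 to 7 and the 4 with a difference below became 2 to 5 with a library left out.

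Feedback inhibitors and decoys, which damp cytokine and Toll-like receptor signalling, included 8 genes raised by both, of 21. With IL-4 8 were higher and 1 lower of 19 tested, with *E. coli* 14 and 3 of 18, and the difference was called above for 2 and below for 7 of 19 (median -0.59). *Socs1*, an inhibitor of Janus kinases, was at 319.7, 259 and 293 CPM in libraries d to f, 800.3, 778 and 925 CPM with IL-4, 476, 608 and 539 CPM in libraries a to c and 929, 916 and 963 CPM with *E. coli*. Every stimulated library lay above its controls, and the responses of 1.52 and 0.79 differed by 0.72 ± 0.17 (edgeR quasi-likelihood, adjusted p = 0.00549). This difference was 0.42 and no longer called after counts of the *E. coli* layout had been corrected for identifier collisions, an alternative chosen after seeing the data. *Socs3*, an inhibitor of interleukin 6 signalling, rose by 1.32 with IL-4 and 2.02 with *E. coli*, with an uncalled difference of -0.72. *Il1r2*, a decoy receptor for IL-1, rose by 0.61 and 2.13, with a called difference of -1.54. *Dusp1*, a phosphatase of MAP kinases, fell with both, by 0.93 and 1.47, and overlaps a gene on the opposite strand. The difference of *Socs3* was also called without *E. coli* library 1 (-0.88) or 2 (-0.88) or without a filter on low counts (-0.73). *Il1r2* lost its IL-4 call without any 1 IL-4 library or unstimulated library d or f, and *Dusp1* lost its IL-4 call without unstimulated library d or any 1 IL-4 library. The 8 higher with IL-4 became 3 to 9 with a library left out.

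Type I interferon-stimulated genes, whose products block viruses, moved apart, IL-4 lying above *E. coli*. Of 29 genes, all tested in each response, 24 had a called difference with IL-4 above *E. coli*, with a median difference of 1.04. With *E. coli* 21 were lower (median -0.62), with IL-4 12 were higher and 1 lower (median 0.37), and 9 were called in opposite directions. *Herc6*, a ligase for the ubiquitin-like ISG15, was at 104, 91.9 and 118 CPM in libraries d to f, 212, 203 and 212 CPM with IL-4, 163, 145 and 201 CPM in libraries a to c and 65.6, 73.4 and 74.1 CPM with *E. coli*. The IL-4 libraries were all above their controls and the *E. coli* libraries all below theirs, and the difference was 2.24 ± 0.19 (edgeR quasi-likelihood, adjusted p = 4.76e-07). *Ifi47*, an interferon-induced GTPase, differed by 1.99 and overlaps a gene on the opposite strand. *Mx1* and *Ifit2*, antiviral proteins, fell with *E. coli* by 1.63 and 1.75 and had uncalled responses of 0.26 and -0.07 to IL-4. The 12 higher with IL-4 became 6 to 16 with a library left out.

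Of 35 genes of glycolysis and hypoxia, 23 were higher and 2 lower of 33 tested with *E. coli*, 10 were higher of 34 tested with IL-4, and 7 were raised by both. The difference was called below for 11 and above for 2 of 34 (median -0.48). *Egln1*, an oxygen-sensing prolyl hydroxylase, rose by 0.96 with IL-4 and 0.94 with *E. coli*, and the 95% interval of its difference ran from -0.45 to 0.44. *Slc2a1*, a glucose transporter, and *Slc16a3*, which exports lactate, rose with *E. coli* by 1.38 and 0.96 and had uncalled responses of -0.25 and -0.46 to IL-4, with called differences of -1.64 and -1.43. *Mif*, a cytokine, and *P4ha1*, a collagen prolyl hydroxylase, rose with both and more with *E. coli* (differences -1.52 and -1.74). Mean levels of *Gapdh* were 4.91 and 6.30 CPM in the IL-4 layout and 463 and 925 CPM in the other, and those of *Pgam1* 0.997 and 1.29 CPM and 938 and 1384 CPM. The values of these enzymes in the IL-4 layout are therefore uncertain, and the other copies of such genes in the genome were not searched for. *Slc16a3* gained an IL-4 call without unstimulated library d, and *Mif* lost its IL-4 call without IL-4 library 2 or 3 or unstimulated library d or f. *P4ha1* lost its IL-4 call without unstimulated library f or any 1 IL-4 library. The 10 higher with IL-4 became 3 to 20 with a library left out.

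Among 33 surface activation and adhesion genes tested, 11 had a difference above and 6 below (median 0.36). With IL-4 9 were higher and 6 lower of 32, and with *E. coli* 12 and 10 of 33. *Clec12a*, an inhibitory receptor for dead cells, was at 59.7, 51.02 and 71.7 CPM in libraries d to f, 54.2, 44.4 and 63.5 CPM with IL-4, 442, 441 and 308 CPM in libraries a to c and 30.8, 24.3 and 35.2 CPM with *E. coli*. It fell in every *E. coli* library, by 3.74, overlapped its controls with IL-4, and differed by 3.54 ± 0.27 (edgeR quasi-likelihood, adjusted p = 1.64e-07). *Trem1*, a receptor that amplifies inflammation, rose with *E. coli* from 9.03 to 239 CPM and had an uncalled response of 0.60 to IL-4 (difference -4.16). *Pilra*, an inhibitory receptor, was at 29.3, 27.6 and 28.5 CPM in the IL-4 libraries against 72.2, 62.6 and 80.03 CPM in libraries d to f, and 469, 437 and 481 CPM in the *E. coli* libraries against 81.1, 80.7 and 66.4 CPM in libraries a to c, in opposite directions without overlap (difference -3.95). It overlaps a gene on the opposite strand. *Cd69*, an early activation marker, rose with both and more with IL-4 (difference 1.17), and *Cd101*, an inhibitory surface protein, rose with IL-4 by 2.40 and had an uncalled response of 0.01 to *E. coli*. *Itga4*, an integrin chain that binds vessel walls, fell with both, by 0.72 and 1.75. *Itga4* lost its IL-4 call without IL-4 library 1 or 3. The 6 lower with IL-4 became 3 to 6 with a library left out.

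Eosinophil granule and lineage genes gave 3 differences above and 7 below of 21 tested (median -0.18). Higher and lower with IL-4 were 4 and 4 of 23, and with *E. coli* 6 and 3 of 19. *Il5ra*, the IL-5 receptor alpha chain, was at 43.3, 38.4 and 41.3 CPM in libraries d to f, 65.4, 58.5 and 62.2 CPM with IL-4, 219, 163 and 189 CPM in libraries a to c and 73.9, 75.9 and 79.4 CPM with *E. coli*. It was higher in every IL-4 library and lower in every *E. coli* library, with responses of 0.60 and -1.33 and a difference of 1.91 ± 0.18 (edgeR quasi-likelihood, adjusted p = 1.28e-06). *Siglecf*, the lectin that marks mouse eosinophils, was at 929.7, 907 and 938 CPM in the IL-4 libraries against 676, 740.2 and 707 CPM in libraries d to f, and 711, 676 and 676 CPM in the *E. coli* libraries against 1007, 1238 and 1010.3 CPM in libraries a to c. It separated in the same way, with a difference of 1.03 ± 0.16. *Prg2* rose with IL-4 by 0.83 and had an uncalled response of -0.16 to *E. coli*. *Ear6*, an eosinophil ribonuclease, rose with both (1.34 and 1.32). The transcription factors *Gata1* and *Cebpb* rose with *E. coli* by 0.58 and 0.54, and their responses to IL-4 were -0.23, not called, and -0.54, called lower. *Ccr3* and *Cebpb* were near the highest count of the *E. coli* layout. *Il5ra* lost its IL-4 call without unstimulated library f or any 1 IL-4 library, and *Siglecf* and *Prg2* lost their IL-4 calls without any 1 IL-4 library or unstimulated library d or f. *Cebpb* lost its IL-4 call without unstimulated library d or any 1 IL-4 library. The 4 higher with IL-4 became 1 to 5, the 4 lower with IL-4 became 1 to 6 and the 7 with a difference below became 4 to 8 with a library left out.

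In the list of cholesterol synthesis and transport, 5 of 17 genes tested had a difference below and 2 above (median -0.63, or -0.68 with the gene at the floor set to its bound). Of these genes 3 were higher and 2 lower with IL-4 of 15 tested, and 6 and 1 with *E. coli* of 14. *Srebf2*, the transcription factor of this pathway, fell with IL-4 and rose with *E. coli* (-0.53 and 0.39). *Abca1*, a cholesterol exporter, rose with both (0.54 and 1.25). Among amino acid response genes, 9 of 19 had a difference below and 1 above (median -0.86), 9 of 17 were higher with *E. coli* and 4 of 17 lower with IL-4. *Slc3a2*, the partner chain of *Slc7a11*, and *Slc7a1*, a transporter of cationic amino acids, fell with IL-4 by 0.52 and 1.03 and rose with *E. coli* by 0.59 and 0.63. *Srebf2* lost its IL-4 call without any 1 IL-4 library or unstimulated library e or f, and *Srebf2* lost its *E. coli* call without unstimulated library c or *E. coli* library 1 or 2. *Abca1* and *Slc3a2* lost their IL-4 calls without any 1 IL-4 library, and *Slc7a1* lost its IL-4 call without IL-4 library 1 or 3. *Slc7a1* lost its *E. coli* call without unstimulated library a. The 4 amino acid response genes lower with IL-4 became 1 to 5 and the 9 amino acid response genes higher with *E. coli* became 5 to 9 with a library left out.

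The receptors and signalling proteins of the stimuli themselves were also listed. Of 28 members, 25 were tested with IL-4, 2 being lower, and 25 with *E. coli*, 7 being higher and 4 lower. Differences were called below for 8 and above for 2 of 25 (median -0.25). *Il4ra* was at 257, 251 and 272 CPM with *E. coli* against 111, 119 and 128 CPM in libraries a to c, a rise without overlap, and at 114, 120.5 and 107 CPM with IL-4 against 111, 143 and 104 CPM in libraries d to f. Its difference was -1.21 ± 0.18 (edgeR quasi-likelihood, adjusted p = 1.11e-04), and *Il4ra* overlaps a gene on the opposite strand. *Il2rg*, the common gamma chain of the IL-4 receptor, rose with *E. coli* by 0.46, and *Tlr4*, the lipopolysaccharide receptor, by 0.77, with called differences of -0.72 and -1.05. *Stat6* itself was at 176 and 175 CPM without and with IL-4, a response of -0.01 that was not called, and fell with *E. coli* by 0.30. The difference of *Tlr4* was no longer called after thinning to the smallest total (-0.80). *Stat6* lost its *E. coli* call without unstimulated library c or any 1 *E. coli* library. The 4 lower with *E. coli* became 1 to 3 and the 8 with a difference below became 4 to 7 with a library left out.

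**Figure D4:**
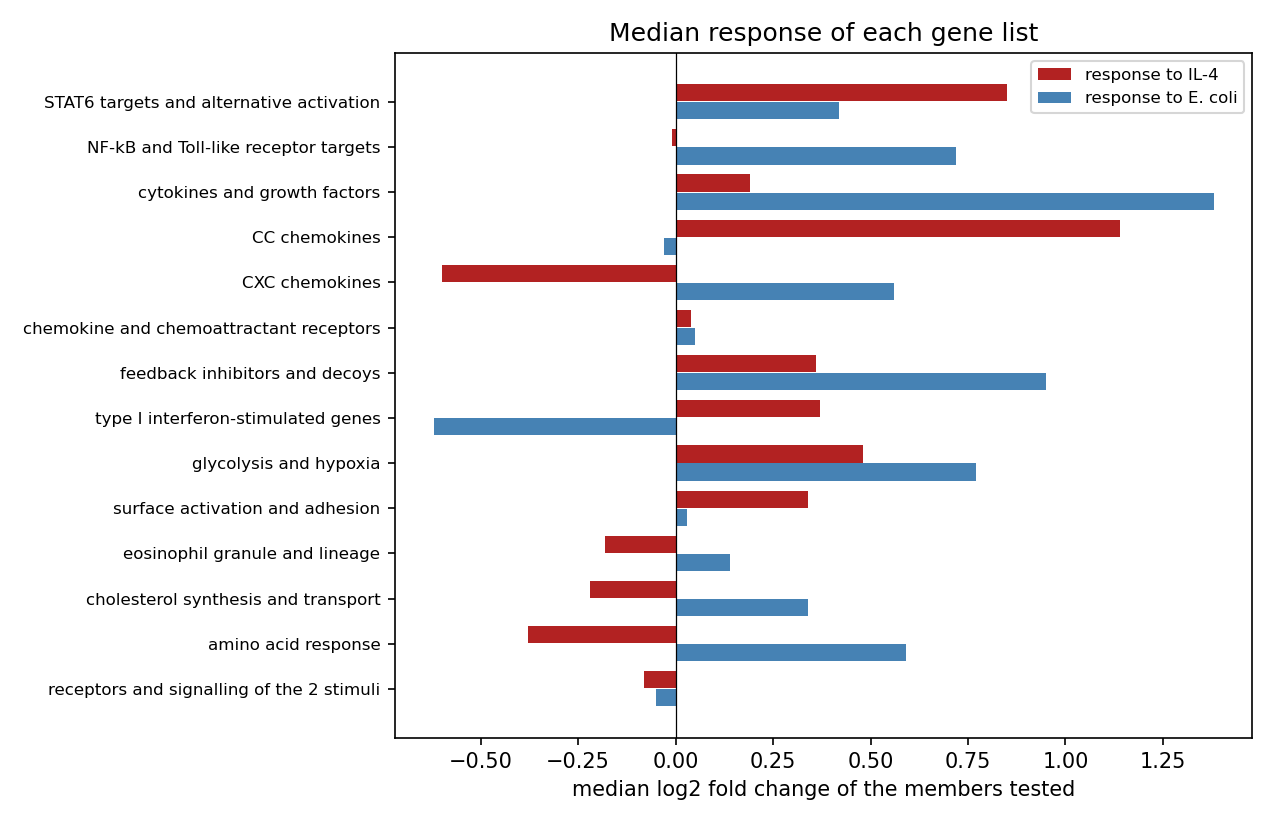
Median log2 response to IL-4 (red bars) and to *E. coli* (blue bars) over the members tested of each of 14 gene lists. The medians of cytokines and of NF-kB targets were larger with *E. coli*, and type I interferon-stimulated genes had a positive median with IL-4 and a negative one with *E. coli*.

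Markers of further cell types were counted too, and their part in the responses was not tested. Neutrophil markers, 11 genes, summed to 2005, 1954 and 1696 CPM in libraries d to f, 809.8, 838 and 777 CPM with IL-4, 633, 765 and 628 CPM in libraries a to c and 513, 496 and 561 CPM with *E. coli*, below all controls with either stimulus. *Retnlg*, a resistin-like protein, made up most of these sums and fell with both stimuli (from 1855 to 755 CPM with IL-4 and from 621 to 311 CPM with *E. coli*). *Ly6g*, which defines mouse neutrophils, had means of 2.26, 3.21, 4.39 and 3.69 CPM in the same order of groups. *S100a8*, a calcium-binding protein, and *Mmp8*, a collagenase, rose with *E. coli* by 3.08 and 1.61, or by 2.51 and 1.57 without library 3. With IL-4 *S100a8* had an uncalled response of -0.71, and *Mmp8* was called lower (-1.59). Their differences of -3.81 and -3.22 were called. *Cxcr2*, raised by both, was the only marker of this list called higher with IL-4. T cell markers had mean sums of 4.98, 3.95, 8.67 and 5.99 CPM, led by *Cd3d*, with *Thy1* and *Trbc1* at 0 in libraries d to f, and innate lymphoid cell markers 10.4, 16.6, 9.76 and 6.90 CPM, led by *Il7r*, with *Klrb1c* at 0 in every group. Mast cell markers, led by *Tpsb2*, had mean sums of 7.53, 15.3, 8.98 and 18.5 CPM, the last being 9.13 CPM without *E. coli* library 3, and dendritic cell markers, led by *Xcr1*, 5.93, 12.98, 5.89 and 5.004 CPM. Platelet markers had mean sums of 677, 556, 475 and 529 CPM (the last 463 CPM without library 3) and erythroid markers, led by *Hbb-bs*, 99.3, 83.6, 69.1 and 89.2 CPM (the last 64.7 CPM without library 3), with *Alas2* at 0 in all groups but *E. coli*. *Mmp8* lost its IL-4 call without unstimulated library f or any 1 IL-4 library.

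Promoters were searched for binding motifs of the factors named above, in the 250 bases before each gene's start in RefSeq's promoter table for GRCm38.p6, on both strands. The STAT6 motif was TTC, 4 bases of any kind and GAA, held by 5.85% of 32851 promoters, and the NF-kB motif was GGGA, any 2 bases and TTCC, held by 1.21%. Of the 11133 genes tested for the difference, 8297 were matched, with shares of 5.81% and 1.53%. Among matched genes higher with IL-4 the shares were 7.83% for STAT6 and 1.74% for NF-kB, among those higher with *E. coli* 5.89% and 2.07%, and among those raised by both 7.58% and 3.03%, the last on 66 promoters. Among those lower with IL-4 they were 6.88% and 1.85%, and lower with *E. coli* 6.95% and 1.68%. Genes higher with IL-4 and lower with *E. coli* had 7.14% and 2.04%, and the reverse 8.13% and 3.25%. Called differences with IL-4 above *E. coli* had 7.36% and 1.62%, and those below 4.99% and 2.05%. These shares are descriptions without a test, and a match is not a binding site. The promoters of *Ccl17*, raised by IL-4 (chr8:94810203-94810452, plus strand), *Cxcl3*, raised by *E. coli* (chr5:90785851-90786100, plus strand), and *Pdcd1lg2* and *Il6*, raised by both (chr19:29410669-29410918, plus strand, and chr5:30012864-30013113, plus strand), are shown 5′ to 3′ as examples. Capitals mark the STAT6 motif in *Ccl17* and *Pdcd1lg2* and the NF-kB motif in *Cxcl3* and *Il6*.
Ccl17: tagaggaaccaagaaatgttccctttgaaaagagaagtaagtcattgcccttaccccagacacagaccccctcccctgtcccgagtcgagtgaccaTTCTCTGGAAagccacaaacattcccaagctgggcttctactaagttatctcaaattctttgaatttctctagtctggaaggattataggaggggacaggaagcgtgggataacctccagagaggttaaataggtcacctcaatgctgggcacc
Pdcd1lg2: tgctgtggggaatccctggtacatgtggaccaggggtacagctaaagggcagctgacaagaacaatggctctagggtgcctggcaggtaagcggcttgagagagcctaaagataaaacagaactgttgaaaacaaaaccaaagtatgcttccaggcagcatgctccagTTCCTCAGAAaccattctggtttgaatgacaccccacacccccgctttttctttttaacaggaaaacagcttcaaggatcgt
Il6: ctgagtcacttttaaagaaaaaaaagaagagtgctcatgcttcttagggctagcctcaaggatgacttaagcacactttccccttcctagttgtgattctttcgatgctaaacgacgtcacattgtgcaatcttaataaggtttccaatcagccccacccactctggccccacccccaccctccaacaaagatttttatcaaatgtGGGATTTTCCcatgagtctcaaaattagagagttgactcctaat
Cxcl3: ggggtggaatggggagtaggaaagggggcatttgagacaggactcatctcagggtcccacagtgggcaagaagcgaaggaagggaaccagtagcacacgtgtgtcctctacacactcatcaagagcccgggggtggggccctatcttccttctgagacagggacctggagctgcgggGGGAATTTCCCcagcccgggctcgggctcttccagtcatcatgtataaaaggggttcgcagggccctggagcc

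The unstimulated groups themselves differed between layouts. In the 12-library model 5724 of 11133 genes (51.4%) were called between libraries d to f and a to c, and whether cells or layout made this difference cannot be told apart. For this reason each stimulus was set against its own controls. The unstimulated groups also differed for 804 of the 1450 genes with IL-4 above *E. coli* and for 902 of the 1410 below. *Ppbp* was among them, libraries d to f lying above a to c by 3.77 on the log2 scale. The part of this in the differences between the responses was not tested. Replicates varied more in the IL-4 layout, where edgeR put the biological coefficient of variation at 0.182, than in the *E. coli* layout (0.109), so that fewer calls with IL-4 do not show a smaller response.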

How the data were processed

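The authors deposited whole-number counts per gene for each library, in a pair of file layouts, and the deposited counts were used unchanged. The methods describe CEL-Seq2 libraries, and the labels also name a CEL-Seq run and an RNA-seq run without saying which library came from which. Reads were aligned to GRCm38 with TopHat2 2.1.0 and counted with HTSeq 0.6.1, and fastp 0.20.1 and STAR 2.7.2a are named as well, without the libraries they served. Lines for reads outside genes were left out of all totals. In the used libraries of the *E. coli* layout, 25.1% to 37.6% of the counts of a file stood under no_feature and 1.84% to 2.27% under ambiguous. Totals were 1562034 to 2734041 counts in that layout and 3625036 to 6482289 in the IL-4 layout.

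The 54232 genes listed in both layouts were used. The difference was fitted in 1 model of group means over the 12 libraries, and each response in the 6 libraries of its own layout, with edgeR 4.0.16 (filterByExpr, TMM, glmQLFit and glmQLFTest) in R 4.3.3, with Benjamini-Hochberg adjustment and a threshold of 0.05. The procedure was tested on simulated data, with results that are not given here. Per-library responses used log2 of CPM plus a pseudocount of 0.5. Ratios at the floor have exact (Clopper-Pearson) intervals from pooled counts, which cover counting error only. Coordinates are those of GENCODE M21 on GRCm38.

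The members and gene lists were chosen with earlier results of these data known. Genes were named by a rule. Among called differences with a mean of at least 5 CPM in a group, it took the 12 largest each way measured in all groups, where the per-library responses had to differ without overlap, and the 5 largest each way with a group at the floor. To these came the 12 genes raised by both with the largest smaller response, the 6 raised by both with the smallest standard error of the difference among those whose 95% interval lay within 0.5 of 0, and the 6 largest differences each way among genes moved in opposite directions. Genes lowered by both, list members, marker genes and genes from the study were added after their values were seen, and not every gene the study names is described.

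Alternatives were DESeq2 size factors, TMM within each layout, DESeq2 1.42.0, other filters on low counts, a factor of 2, each library left out, all 18 libraries, limma-voom (limma 3.58.1) with a weight per layout, the replicate number as a block, libraries thinned to the smallest total, genes near the highest count left out, and both responses from the 12-library model. A correction of the *E. coli* layout for identifier collisions was chosen after seeing the data. List medians of the difference moved by at most 0.04 on the log2 scale under the other scalings. Single responses of named genes and list counts were refitted only with each library left out, after seeing the data, and near-identical copies of genes were not searched for.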

Additional observations from a re-analysis of the deposited data

How the results depend on the processing

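The number of genes with a different response was 2860, and it ran from 2128 to 3126 when each of the 12 libraries was left out in turn and from 2483 to 3007 under the other scalings, tests, filters and models. Of these genes, 2643 were also called by DESeq2, 2820 with TMM computed within each layout and 2825 without genes near the highest count. It fell to 1778 with a factor of 2 required and to 1565 after thinning, where 9840 genes were tested. Genes raised by both numbered 94, 63 to 130 with a library left out, 89 to 129 under the other settings and 37 with a factor of 2. Genes moved in opposite directions numbered 392, 186 to 482 with a library left out, 383 to 544 under the other settings and 98 with a factor of 2. With the replicate number as a block 2540 differences were called. Each library's deviation in log2 CPM from the mean of its own group was correlated across genes between IL-4 and *E. coli* libraries. Pearson's r was 0.00146, 0.0528 and 0.101 for libraries of equal number and -0.0915 to 0.0532 for those of unequal number. The labels do not say whether equal numbers share an origin. With limma-voom the libraries of the *E. coli* layout had a mean weight of 1.33 and those of the IL-4 layout 0.751.

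Genes called for the response to IL-4 numbered 1089, 483 to 1394 with a library left out, 1634 without a filter on low counts, 1748 in the 12-library model and 478 with a factor of 2. Those called for the response to *E. coli* numbered 3158, 2236 to 3195 with a library left out, 2299 to 3404 under the other settings and 1024 with a factor of 2. These counts were added to the alternatives after seeing the data.

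For 142 genes the difference was refitted under each setting that tested them, which gave 3191 values. Of these, 3042 kept their direction and their side of the threshold, 55 kept the direction and lost the call, 35 gained a call, and 59 changed sign, all of them for differences that were not called in either fit. The lost calls belonged to 20 genes. The cause was not tested for any of these.

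The sign of the log2 difference changed with DESeq2 size factors in edgeR for *Tuba4a* (-0.01), *Sema4a* (-0.03) and *Sys1* (-0.02) and with DESeq2 for *Tuba4a* (-0.01), *Sema4a* (-0.03), *Sys1* (-0.02) and *Sprr2f* (0.65). It also changed without a filter on low counts for *Sema4a* (-0) and among genes with 10 or more counts in every library for *Pecam1* (0.01), the value of 0 being negative before rounding. A change of sign was seen with limma-voom for *Pdcd1lg2* (0.09) and *Sprr2f* (1.81) and after thinning for *Spic* (-1.87), *Pdcd1lg2* (0.46), *Tuba4a* (-0.03), *Cebpa* (0.59), *Sys1* (-0.05) and *Bnip3* (0.16). It was seen as well after the correction for identifier collisions for *Map2k1* (-0.01), *Nfkbia* (-0.1), *Tuba4a* (-0.01), *Sema4a* (-0.08), *Ccl7* (-0.04) and *Sys1* (-0.02). With a library left out, differences that changed sign ran from -0.07 to 0.09 for *Sema4a*, -0.03 to 0.29 for *Adra2a*, -0.18 to 0.53 for *Ccl7*, -0.15 to 0.61 for *Rab7b*, -0.09 to 0.09 for *Tuba4a*, -0.07 to 0.06 for *Sys1* and -0 to 0.1 for *Map2k1*. Those of the remaining genes ran from -0.12 to 0.22 for *Nfkbia*, -0.61 to 0.3 for *Cebpa*, -0.38 to 0.11 for *Ccl2*, -1 to 0.13 for *Sprr2f*, -0.14 to 0.02 for *Pecam1*, -0.28 to 0.01 for *Pdcd1lg2*, -1.88 to 2.81 for *Il19* and -0 to 1.89 for *Spic*. *Il19*, *Spic*, *Sprr2f* and *Pdcd1lg2* had groups near or at the counting floor, where a fitted value is no bound.

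Genes that a stricter filter or a smaller total removed have no value under that setting. The libraries of the *E. coli* layout held fewer counts than those of the IL-4 layout, so the depth of the former limits which low genes can be called, and the count ceiling limits how far abundant genes can rise there. The layouts, their unstimulated cells and any difference in library making cannot be told apart. The correction for identifier collisions was chosen after seeing the data, and whether the counts of the *E. coli* layout are collapsed identifiers is not stated by the labels.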

Other observations

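Further genes, named by the study or in earlier results of these data, moved with one stimulus, with both or in opposite directions. *Slpi*, which encodes an inhibitor of neutrophil proteases, was at 393, 395 and 462 CPM in the IL-4 libraries against 1032, 1090.2 and 1281 CPM in libraries d to f, and 898, 931 and 1372 CPM in the *E. coli* libraries against 543, 583 and 599 CPM in libraries a to c. It fell in every IL-4 library and rose in every *E. coli* library, with a difference of -2.35 ± 0.22 (edgeR quasi-likelihood, adjusted p = 1.03e-06). *Pou2f2* and *Maff*, transcription factors, and *Bcl3*, an NF-kB cofactor, rose with *E. coli* by 2.81, 3.74 and 2.05 on the log2 scale and had uncalled responses of -0.80, 0.37 and -0.15 to IL-4, with called differences of -3.61, -3.41 and -2.22. *Cxcl5*, a neutrophil chemokine, rose with *E. coli* from 6.06 to 83.3 CPM and was at 1.25 and 2.05 CPM without and with IL-4 (difference -3.18). *Ifitm6*, an interferon-induced membrane protein, fell with IL-4 from 14.1 to 2.57 CPM and had an uncalled response of -0.31 to *E. coli*, while *Tgfbi*, a matrix protein, fell with *E. coli* from 347 to 121 CPM and had an uncalled response of 0.13 to IL-4. *Edn1*, which encodes the ligand of the endothelin receptors, was at 11.4, 13.3 and 10.1 CPM with IL-4, higher by 44.2-fold (95% counting interval 16.95 to 164), and had a mean of 1.49 CPM with *E. coli*. The difference of *Cxcl5* was no longer called without unstimulated library e (-2.56). That of *Edn1* was not called with all libraries. It gained a call with DESeq2 (3.9), with limma-voom (4.42), without a filter on low counts (3.87) or without *E. coli* library 3 (5.53), fitted values that give no bound. *Pou2f2* gained an IL-4 call without unstimulated library e.

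More genes rose with both or fell with both. *Olr1*, a receptor for oxidized lipoproteins, rose by 1.14 and 1.37 (log2, IL-4 first), and *Lipg*, an endothelial lipase, by 1.32 and 0.63, without a called difference. *Ero1l*, an oxidase of the endoplasmic reticulum, rose more with *E. coli* (difference -1.09), and *Rnf19b*, a ubiquitin ligase, more with IL-4 (difference 0.72). *Siglecg*, an inhibitory lectin that binds sialic acid, fell by 0.63 and 0.80, *Bank1*, a scaffold protein of B cells, fell by 0.53 and 0.79, and *Inpp5j*, a phosphoinositide phosphatase, fell by 0.83 and 1.03, in all stimulated libraries. *Tspan13*, a tetraspanin, fell with both and further with *E. coli* (difference 1.17). *Bcl3*, *Edn1* and *Inpp5j* overlap genes on the opposite strand. *Lipg* lost its *E. coli* call without any 1 *E. coli* library or unstimulated library b or c, and *Bank1* lost its IL-4 call without any 1 IL-4 library. *Inpp5j* lost its IL-4 call without IL-4 library 1 or 3, and *Tspan13* lost its IL-4 call without any 1 IL-4 library or unstimulated library d or f.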
